A study of Cavia porcellus with 12 samples.

Results

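The muscle miRNAs miR-1 and miR-206 were followed through every sequence listed under their human precursors hsa-mir-1-1, hsa-mir-1-2 and hsa-mir-206. An entry was taken when its name ended exactly in 1 of these precursor names, and the arm of the hairpin was read from the start position in the name. These are 3 of the 287 precursors with a mean above 0, and they held 22 entries in the 1 h table, 20 in the 22 h table and 26 in the table of DOX 22 h and DOX 1 h. Of these, 22, 20 and 20 had a mean of at least 10. The 22 h table lists no mean under 10.02 for any miRNA. The 1 h table has 15 means under 10, which may be errors of the restored decimal mark described below. Rare entries could thus be seen less well in the 22 h table, and perhaps in the 1 h table. The cells were isolated ventricular cardiomyocytes of the guinea pig (Cavia porcellus), kept at room temperature and sequenced for small RNA. They had been exposed to doxorubicin (DOX), an anthracycline used against cancer that is toxic to the heart, or to its solvent DMSO. The 4 groups were DMSO for 1 h, 10 µM DOX for 1 h, DMSO for 22 h and 10 µM DOX for 22 h, with 3 libraries each and 12 in all. The animals were adult female Hartley guinea pigs, whose hearts were perfused by the Langendorff method to free the cells, and the labels do not say whether the libraries of a group came from separate animals. The times are those of the sample labels, while the RNA extraction protocol given for every sample names 22 h only. Each table covers 1 comparison: DOX and DMSO at 1 h, DOX and DMSO at 22 h, or DOX at 22 h and DOX at 1 h.

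miR-1 is a small RNA made at high levels in heart and skeletal muscle, where it lowers the output of its target mRNAs, among them those of the transcription factor HAND2 and the gap junction protein connexin 43. It comes from a pair of genes, mir-1-1 and mir-1-2, each transcribed together with a gene for miR-133a (mir-133a-2 and mir-133a-1, respectively), and both yield the same mature miRNA from the 3′ arm of their hairpins. miR-206 belongs to the same family and shares its seed, the bases that pair with targets, but it is known mainly from skeletal muscle, where its gene lies beside that of miR-133b.

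The sequences below are those that hold most of the reads, with those under mir-206 last, because every comparison that follows is between them. They are written 5′ to 3′ in DNA letters, as the tables give them. Capitals mark bases that differ from, or are added to, the most abundant sequence, and positions count from 1 at the 5′ end.
miR-1, 20 bases, most abundant: gaatgtaaagaagtatgtat
miR-1, 20 bases, base-15 variant (A15G): gaatgtaaagaagtGtgtat
miR-1, 21 bases, added T: gaatgtaaagaagtatgtatT
miR-1, 21 bases, base-15 variant with added T: gaatgtaaagaagtGtgtatT
miR-1, 18 bases: gaatgtaaagaagtatgt
miR-1, 16 bases: gaatgtaaagaagtat
miR-1, 15 bases: gaatgtaaagaagta
miR-1, 14 bases: gaatgtaaagaagt
mir-206, 20 bases (a): gaatgtaaGgaagtGtgtat
mir-206, 18 bases (b): gaatgtaaGgaagtatgt
mir-206, 19 bases (c): gaatgtaaGgaagtatgta
mir-206, 18 bases (d): gaatgtaaGgaagtGtgt
mir-206, 20 bases (e): gaatgtaaagaagtGtgtGC
In the lines for mir-206, the letters (a) to (e) name the entries, and (a) to (d) carry A9G. All 17 distinct sequences under the 3 precursors began with the same 8 bases and were 14 to 21 bases long. None of the 17 was listed under any other precursor.

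Each value is the authors' mean: reads divided by a size factor and averaged over both groups of a comparison. The tables give no value per library, so no SD over replicates and no test between DOX and DMSO could be computed from them, and the depth of the libraries behind the 1 h table is unknown. The means summed to 5874566 in the 1 h table, 4776593 in the 22 h table and 6005178 in the table of DOX 22 h and DOX 1 h. Because each table was normalized on its own, levels are set side by side only as shares of a table's sum. The decimal mark of the means had been lost in the 1 h and 22 h tables and was restored from the same entry of the table of DOX 22 h and DOX 1 h, which all member entries had. The restored means of the members lay within 1.46-fold of the mean they were restored from.

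miR-1 was among the most abundant miRNAs in every table. The 3 precursors together held 20.6% of the summed mean in the 1 h table, 20.95% in the 22 h table and 22.2% in the table of DOX 22 h and DOX 1 h. mir-1-2 ranked 2nd among all precursors in each table, with 10.8%, 11.01% and 11.6% in that order of tables. mir-1-1 ranked 3rd in each, with 9.85%, 9.94% and 10.5%. The only precursor above each of them was mir-143, known from smooth muscle, with 18.98%, 20.6% and 19.5%. Most miR-1 sequences were listed under both mir-1-1 and mir-1-2, so these ranks divide miR-1 between 2 names. The sum of mir-1-1 and mir-1-2 was 20.6%, 20.95% and 22.2%, which was above mir-143 in every table. Whether this gap exceeds the spread of libraries could not be tested. mir-206 stood at the other end, at rank 144, 131 and 140, with 54.4, 67.6 and 51.7 parts per 1000000 of the table's sum (ppm). The mean of mir-1 was thus 3784, 3100 and 4284 times that of mir-206.

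The other muscle miRNAs were read beside them as whole precursors. mir-499a, from an intron of a myosin gene, held 7.17%, 7.79% and 8.08% in the same order of tables. The precursors of miR-133a, the transcription partners of miR-1, together held 5.58%, 6.21% and 6.64%, so that mir-1 stood at 3.69, 3.37 and 3.34 times their level. mir-208b, from an intron of a slow myosin gene, held 0.100%, 0.140% and 0.119%, and mir-208a, from the gene of the fast cardiac myosin, 0.0468%, 0.0605% and 0.0536% (values of 1 h, 22 h, and DOX 22 h and DOX 1 h). mir-133b, the neighbour of mir-206 in skeletal muscle, held 0.0140%, 0.0152% and 0.0169%. The order of the levels, mir-1, mir-499a, mir-133a, mir-208b, mir-208a, mir-133b and mir-206, was the same in the 3 tables, and whether neighbours differ beyond the spread of libraries could not be tested.

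**Figure D1:**
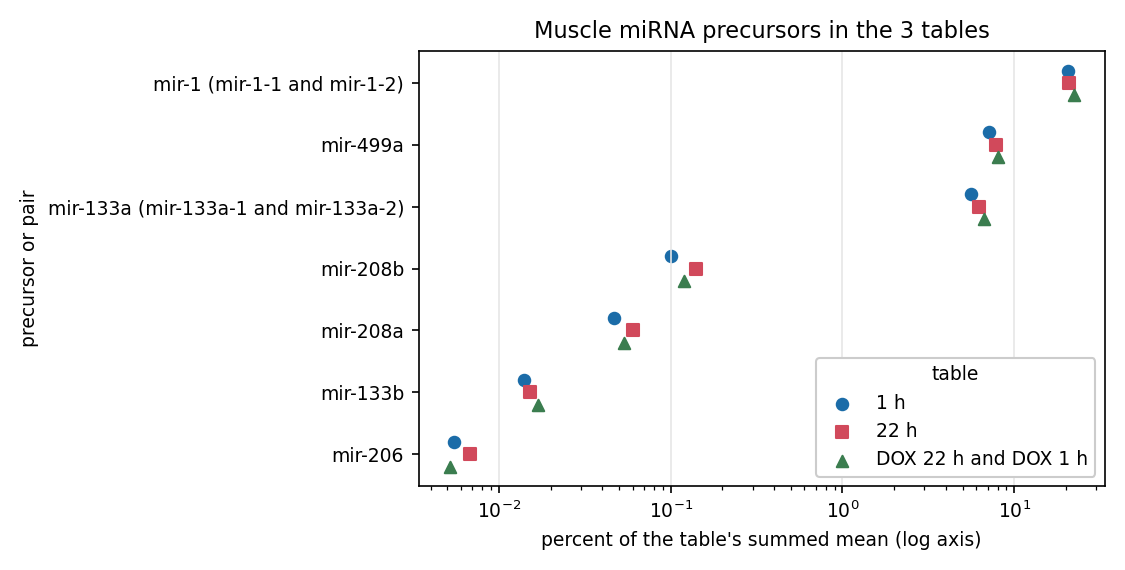
Level of each muscle miRNA precursor, or of the 2 precursors of miR-1 and of miR-133a together, as a percent of the table's summed mean on a log axis, with 1 point per table. The precursors of miR-1 lie at 20.6% to 22.2% and mir-206 at the bottom of all 3 tables.

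The labelled cell type was checked against markers. All 7 cardiac muscle precursors (mir-1-1, mir-1-2, mir-133a-1, mir-133a-2, mir-208a, mir-208b and mir-499a) were detected, and together they held 33.5%, 35.2% and 37.1% of the sum (1 h, 22 h, and DOX 22 h and DOX 1 h). Most of this was miR-1 itself, and the other 5 held 12.9%, 14.2% and 14.9%. The skeletal muscle pair, mir-206 and mir-133b, held 0.0194%, 0.0220% and 0.0220%. Precursors known from other cells of the heart were present as well: the smooth muscle pair mir-143 and mir-145 at 19.4%, 20.96% and 19.8%, and the endothelial mir-126 at 4.41%, 3.83% and 3.24%. Nearly all of the smooth muscle pair was mir-143, and mir-145 held 0.385%, 0.321% and 0.357%. The 3 fibroblast precursors held 0.266%, 0.201% and 0.197%, the 3 of red blood cells 0.0254%, 0.0201% and 0.0210%, and the 3 of white blood cells 0.00884%, 0.00631% and 0.00707%. From 1 h to the table of DOX 22 h and DOX 1 h the share of mir-126 was lower where that of mir-1 was higher, and what part this has in the share of mir-1 was not tested. Whether other cell types were present was not tested beyond these markers. In samples that may hold several cell types, fewer cells of a type and less RNA per cell cannot be told apart. Among 94 precursors with a sum of at least 1000 in every table, the 3 whose share over the tables ran most like that of mir-1 were mir-22, mir-107 and mir-378a. Their distances, the root of the summed squared differences of log2 shares after centring, were 0.0261, 0.0370 and 0.0402 against a median of 0.229. These distances rest on 3 tables that share libraries, and they are given as a description.

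Only 1 arm of each hairpin was seen. The 9 sequences of mir-1-1 all started at position 47 of the precursor, the 12 of mir-1-2 all at position 54, and the 5 of mir-206 all at position 54, as the entry names count. No entry lay on the opposite arm. The entries that carry only a mature name, hsa-miR-1-3p, hsa-miR-1-5p and hsa-miR-206, were listed with a mean of 0 in the table of DOX 22 h and DOX 1 h. A single 5′ start was not unusual there: of 199 arms with at least 5 entries, 70 (35.2%) had 1 start, the 3 member arms among them, and the median arm had 98.1% of its mean at its main start. Among themselves, the listed forms of miR-1 and miR-206 thus differed in their 3′ end and in single bases and not in their 5′ end. Their common start was not compared with that of a mature reference. Lengths and positions are therefore those of the listed sequences and may differ from those of the mature miRNA.

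The most abundant form of miR-1 had 20 bases, and it came under both precursors at the same level. Under mir-1-1 its means were 310517 in the 1 h table, 253955 in the 22 h table and 351995 in the table of DOX 22 h and DOX 1 h. Under mir-1-2 they were 310426, 254493 and 352665. Summed over both, this sequence made up 51.3%, 50.8% and 53.0% of miR-1. In each table the values under the 2 precursors were close to each other and still not equal.

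The second form differed from the first by a single base, A15G. Its means were 251768, 206206 and 262848 under mir-1-1 and 251861, 205760 and 262165 under mir-1-2, again in the order 1 h, 22 h, and DOX 22 h and DOX 1 h. It made up 41.6%, 41.2% and 39.5% of miR-1. Among the 20-base sequences, the share with G at base 15 was 44.8% in the 1 h table, 44.8% in the 22 h table and 42.7% in the table of DOX 22 h and DOX 1 h. Both precursors gave the same shares to within 0.11 percentage points. Each 20-base sequence stood under both names, with 49.9% to 50.1% of it under mir-1-1, so these shares do not measure the 2 genes apart.

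The variant was also seen in the longer form. A 21-base sequence with an added T at its 3′ end was listed under mir-1-2 alone, with means of 27295, 27075 and 34574 for A at base 15 and of 25933, 24203 and 30001 for G at base 15. Of the 21-base reads, 48.7%, 47.2% and 46.5% carried the variant, which was above the share of the 20-base reads in every table. Measured against the 20-base form under mir-1-2 alone, the 21-base form reached 8.79%, 10.6% and 9.80% for A and 10.3%, 11.8% and 11.4% for G. That base holds only the part of the 20-base reads listed under mir-1-2. Against the 20-base form under both precursors, the 21-base form reached 4.40%, 5.33% and 4.91% for A. For G it reached 5.15%, 5.87% and 5.71%. None of the plain shortened forms of 15 to 19 bases was listed with the variant, although the plain 15-, 16- and 18-base forms with A were. The 18-base mir-1 sequences listed with G at base 15 also differed at another base and had means of at most 12.5. Whether the matching of reads to human sequences left plain short forms with G unlisted was not tested. Without values per library the differences in share carry no error, and the tables share libraries.

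**Figure D2:**
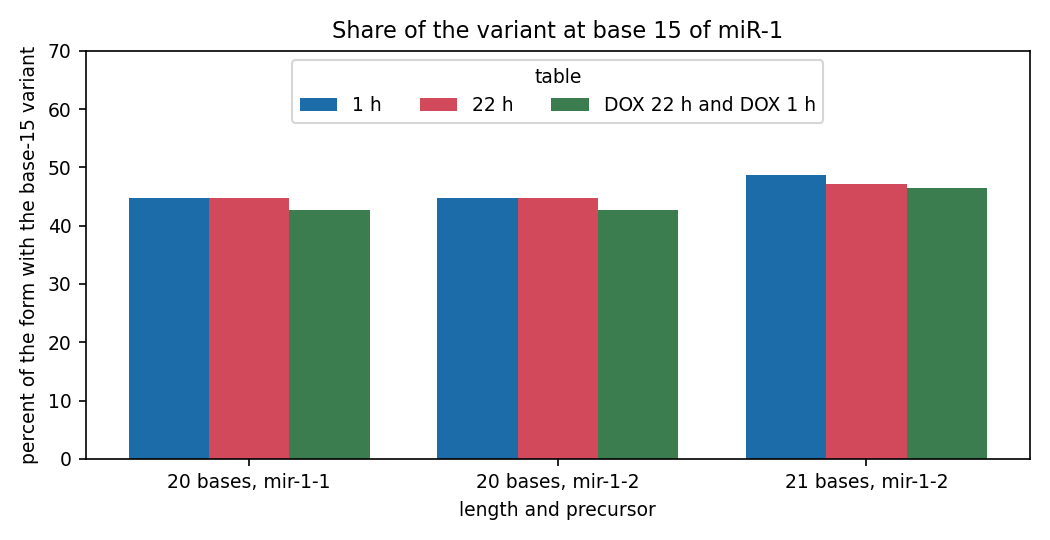
Percent of the sequences of a given length that carry G at base 15 of miR-1, by precursor, with 1 bar per table and an axis from 0. The 20-base bars lie at 42.6% to 44.8% under both precursors and the 21-base bars at 46.5% to 48.7%, and no error can be given because the tables hold no values per library.

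Abundant sequences of other precursors gave a scale for this variant. In the table of DOX 22 h and DOX 1 h, 73 sequences of other precursors had a summed mean of at least 10000, and 28 of them had a listed sequence of the same length 1 base apart, which made 51 pairs. The rarer sequence of a pair stood at a median of 12.3% of the more abundant, with quartiles of 0.0494% and 32.7%. Such pairs include related miRNAs that differ by a base as well as base changes within 1 miRNA. The A15G form stood at 74.5% of its 20-base partner and at 86.8% of its 21-base partner, above 47 and 49 of the 51 pairs. Only 11 of the 51 pairs reached 40%. The reads had been matched to human sequences, and the guinea pig's own miR-1 genes were not analysed here, so whether both bases are encoded in this animal was not tested.

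**Figure D3:**
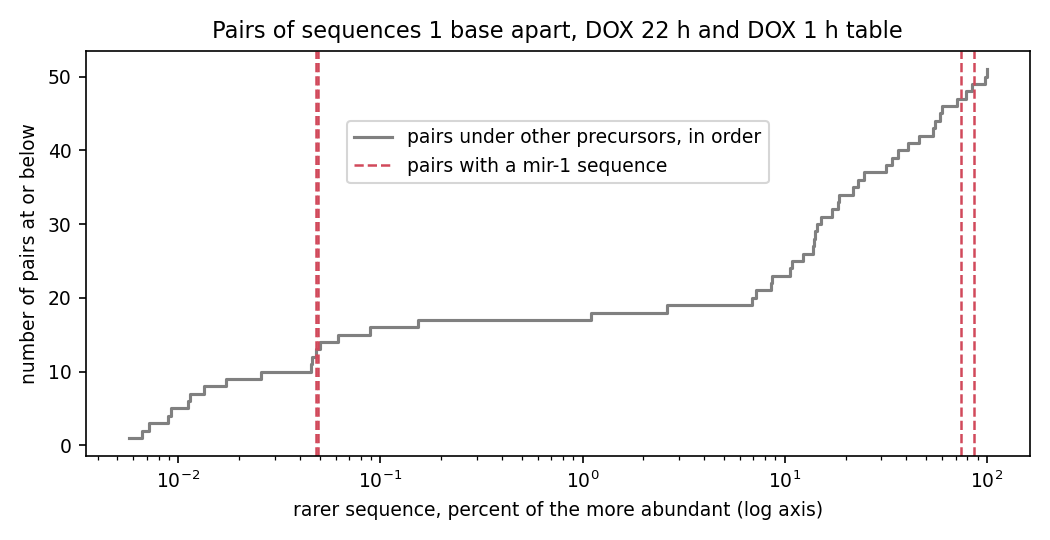
Pairs of sequences 1 base apart in the table of DOX 22 h and DOX 1 h, with the rarer as a percent of the more abundant on a log axis. The grey line counts the 51 pairs under other precursors, and the dashed lines mark pairs with a miR-1 sequence: the A9G pairs under mir-206 at 0.0480% and 0.0489%, near the lower quartile, and the A15G pairs at 74.5% and 86.8%.

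The shorter forms of miR-1 were rare. The 18-base form, which lacks the last bases AT, had means of 29400, 25892 and 32960 over both precursors, which is 4.73%, 5.09% and 4.68% of the 20-base form. The 16-base form had 2310, 2046 and 2479, the 15-base form 246, 226 and 250, and the 14-base form 376, 518 and 524. Plain forms of 17 and 19 bases were not listed in any table. The level thus fell with each step from 20 to 15 bases among the forms listed, and the 14-base form was more abundant than the 15-base form in every table.

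Among the plain and the 21-base forms of miR-1, the 14-base form was also the one whose share moved most between tables. It stood at 64.0 ppm in the 1 h table, 108 in the 22 h table and 87.3 in the table of DOX 22 h and DOX 1 h, which is 1.69 and 1.36 times the level at 1 h. The plain 15-, 16-, 18- and 20-base forms stood at 1.01 to 1.13 times their 1 h level in the 22 h table and at 0.995 to 1.11 times in the table of DOX 22 h and DOX 1 h. The 21-base form with A stood at 1.22 and 1.24 times. The remaining sequences under mir-1 each differed at 2 bases from the most abundant one, and none had a mean above 61.9 under either precursor. The most frequent of these, gaatgtaaagaagtatTtT (G17T A19T), had means of 45.6, 52.9 and 60.9 under mir-1-1 and of 50.6, 48.6 and 61.9 under mir-1-2.

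**Figure D4:**
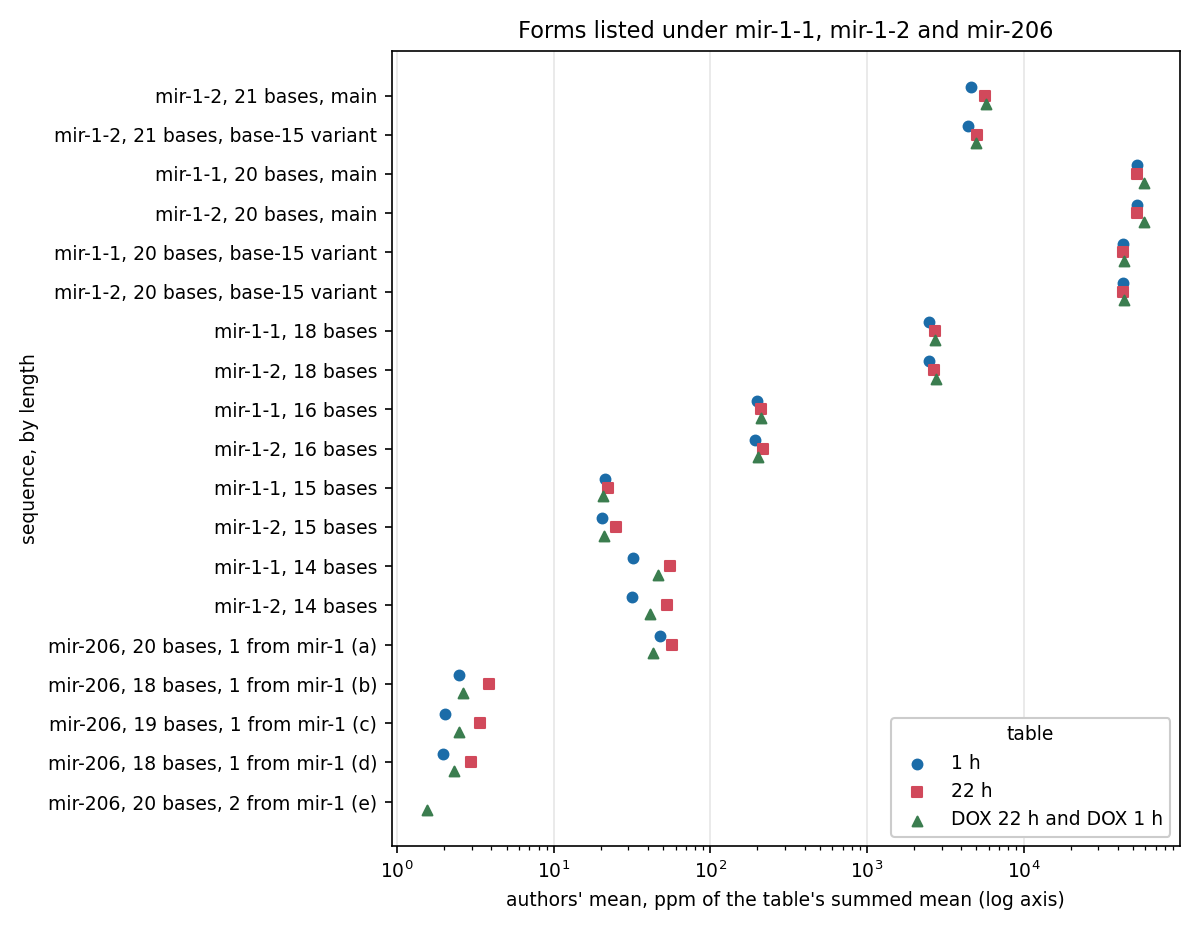
Authors' mean of each sequence under 1 precursor, in ppm of the table's summed mean on a log axis, with 1 point per table; mir-1 entries that differ at 2 bases are left out. The 20-base forms of miR-1 lie at 42857 or more, the 14-base form lies above the 15-base form in every table, and the entries of mir-206 lie at 57.3 or less. The 14-base form ends before base 15 and does not separate A from G there, while the 15-base form has A only.

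mir-1-1 and mir-1-2 could not be told apart by the sequences they share. Of the 12 sequences under mir-1, 9 were listed under both precursors. For those with a sum of at least 1000, the part given to mir-1-1 was 49.4% to 51.2% over the 3 tables, and for the rarer ones 47.2% to 52.8%. The ratio of mir-1-1 to mir-1-2 was 0.916, 0.902 and 0.907 in the order used above, and with the shared sequences alone it was 1.00 in each. The excess of mir-1-2 thus lay in the sequences listed under it alone, above all in the 21-base forms. The miR-133a precursors were split in the same way, with 2.79% for mir-133a-1 and 2.79% for mir-133a-2 in the 1 h table.

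Entries under mir-206 lay close to miR-1 in sequence. The leading entry (a) had means of 282, 274 and 257 in the 3 tables and made up 88.1%, 84.9% and 82.6% of mir-206. It differed from the A15G form of miR-1 by A9G alone and stood at 0.0560%, 0.0665% and 0.0489% of that form. Entry (b), which is the 18-base form of miR-1 with A9G, had means of 14.6, 18.5 and 15.8 and stood at 0.0497%, 0.0715% and 0.0480% of it. Entry (c) had means of 11.8, 16.2 and 14.9, and entry (d) 11.5, 14.1 and 13.9. For (c) and (d) the miR-1 sequence of the same length without A9G was not listed in any table, so no such share can be given. Entry (e), listed only in the table of DOX 22 h and DOX 1 h with a mean of 9.39, lacked A9G and differed from the A15G form by A19G and T20C. Its mean is below the lowest mean of the 22 h table, 10.02, so its absence there says little. The 20-base miR-1 sequence with A9G and A at base 15 was not listed. In the scale of 51 pairs above, the A9G pairs exceeded 12 and 13 pairs. Whether these entries are transcripts of a mir-206 gene or changed copies of miR-1 was not tested.

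Reads of single libraries could be recovered for part of the entries. Every mean above 0 in the table of DOX 22 h and DOX 1 h (2369 of 2369) was a whole multiple of a fixed step. The same held for every restored mean in the 22 h table (1323 of 1323), with a step of its own. A multiple counted as whole when it lay within 1e-05 of a step. Such a step follows from 2 columns of whole reads and their size factors. Each of these tables thus rests on 1 column of reads per side and not on 3 libraries per group, and whether such a column is 1 library or several pooled is not given in the sources used here. For brevity each column is called a library. A single library was common to both tables: with it in place, 1052 of 1052 entries solved from the 22 h table also solved in the other, where 14.3% would by chance. Both tables name the group DOX 22 h and no other group in common, but the libraries were not assigned to groups from their values. They are called the shared library, the 22 h-only library and the DOX 22 h and DOX 1 h-only library. Reads came out without ambiguity for 1216 entries, among them 12 of the 20 member entries of the 22 h table. The other 8, which hold the 18-, 20- and 21-base forms of miR-1 with means from 12892 to 254493, allowed several solutions and are not given per library.

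For the recovered forms, the values per library are whole reads, and the ratios are scaled by the size factors, by which the shared library was 1.12 times the size of the 22 h-only library and 0.778 times that of the DOX 22 h and DOX 1 h-only library. Intervals are exact 95% intervals and cover counting error only, since there is 1 library on each side. The 16-base form had 2210 reads in the shared library, 1894 in the 22 h-only library and 2780 in the DOX 22 h and DOX 1 h-only library. Its ratios to the shared library were 0.964 (0.906 to 1.03) and 0.978 (0.925 to 1.04), so that no difference was detectable at this depth. The 15-base form had 261, 195 and 231 reads, with ratios of 0.840 (0.694 to 1.02) and 0.688 (0.574 to 0.825).

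Among the miR-1 forms with recovered reads, the 14-base form differed most. It had 610 reads in the shared library, 434 in the 22 h-only library and 405 in the DOX 22 h and DOX 1 h-only library. Scaled, the latter were 488 and 315 reads, which is 0.800 (0.706 to 0.906) and 0.516 (0.454 to 0.586) of the shared library. Summed over both precursors, the shared library was thus the highest and the DOX 22 h and DOX 1 h-only library the lowest, beyond counting error. By precursor, the ratio of the 22 h-only library was 0.728 (0.609 to 0.868) under mir-1-1. Under mir-1-2 it was 0.883 (0.738 to 1.06), an interval that holds 1. The changed-end form gaatgtaaagaagtatTtT had 96, 106 and 155 reads and ratios of 1.24 (0.933 to 1.65) and 1.26 (0.967 to 1.64). The part of each recovered miR-1 sequence given to mir-1-1 was 42.6% to 58.3% over the 3 libraries, and the 95% interval (Clopper-Pearson) held 50% in each of them.

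Summed over entries (a) to (d), mir-206 had 256 reads in the shared library, 381 in the 22 h-only library and 354 in the DOX 22 h and DOX 1 h-only library. The 22 h-only library stood at 1.67 (1.42 to 1.97) of the shared library, and the DOX 22 h and DOX 1 h-only library at 1.08 (0.913 to 1.27). Entry (a) alone had 221, 320 and 298 reads, with ratios of 1.63 (1.37 to 1.94) and 1.05 (0.878 to 1.25). Entry (b) had 10, 26 and 23 reads, with ratios of 2.92 (1.36 to 6.79) and 1.79 (0.819 to 4.21). Entry (c) had 13, 19 and 17 reads and entry (d) 12, 16 and 16. The level of miR-1 in the same libraries is not known apart from its short forms, so whether the A9G share of miR-1 differed between them was not tested.

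**Figure D5:**
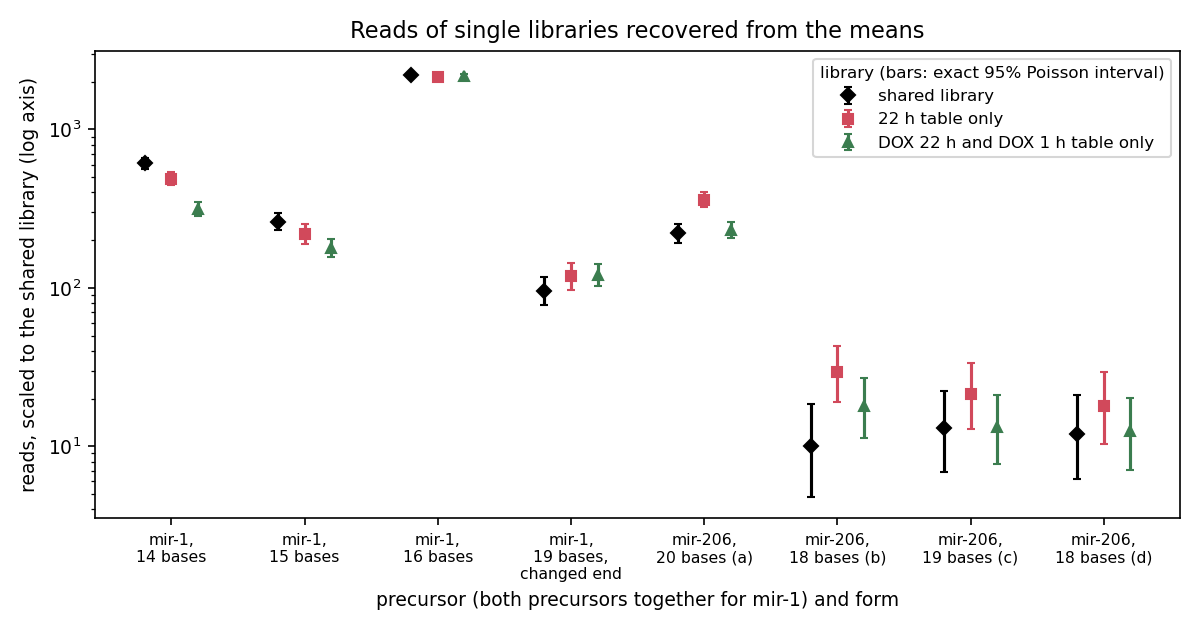
Reads of single libraries recovered from the means, scaled to the size of the shared library, on a log axis, with exact 95% Poisson intervals. The 14-base form of miR-1 falls from 610 in the shared library to 315 scaled reads in the DOX 22 h and DOX 1 h-only library, entry (a) of mir-206 is highest in the 22 h-only library at 360 scaled reads, and the 16-base form is level across the 3.

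Against all recovered entries, few members moved far. Between the 22 h-only and the shared library, 140 of 1216 entries (11.5%) lay past 2-fold in either direction, and 1 of 12 member entries did, which was entry (b) of mir-206. Between the DOX 22 h and DOX 1 h-only and the shared library, 85 of 1187 entries with a mean of at least 10 (7.16%) lay past 2-fold, and 1 of 12 member entries did, which was the 14-base form under mir-1-1 at 0.499. The median ratio of the members was 1.01 and 0.978, beside 0.998 and 0.970 over all recovered entries. The share of members past 2-fold was near that of all entries in both, and with 1 library on each side these ratios compare libraries and not the conditions.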

How the data were processed

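Small RNA of guinea pig ventricular cardiomyocytes was sequenced in 12 libraries (4 groups of 3, taken from the labels). Per the labels and the paper's methods, the authors ran the reads through Illumina's BaseSpace Small RNA application and tested groups with DESeq2; the submitters' processing notes name the human build hg19. Aligner settings and versions are not given in the sources used here. The authors deposited 1 table per comparison. In the table of DOX 22 h and DOX 1 h the deposited mean is a signal, reads divided by size factors and averaged over both groups. In the 1 h and 22 h tables the deposited mean lacks its decimal mark. The remaining columns hold the authors' comparison results (fold changes, standard errors, p-values, group values derived from them) and were not used.

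The power of 10 of a mean was restored from the same entry of the table of DOX 22 h and DOX 1 h, for 1506 of 1610 entries at 1 h and 1323 of 1335 at 22 h. An entry that differs more than about 3-fold between tables would be restored wrongly, and 15 entries at 1 h with restored means under 10 may be such. Sequences were parsed from entry names, compared base by base, and summed per precursor. The 22 h means and those of DOX 22 h and DOX 1 h were solved jointly for whole reads. On simulated data, 819 of 819 entries with 1 solution were recovered rightly. The planned model of counts per library was not run, since the tables hold no values per library.

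The members and lists were chosen with earlier results of these data known. Named entries were the 5 most abundant of each precursor in each table and all entries of mir-206. gaatgtaaagaagtatTtT and the 15-base form lie outside that rule and were named after their values were seen. The alternatives were other denominators, counting each sequence once, means of at least 10, sequences under both precursors, smaller solutions and another scaling. Python 3.11.15 with numpy 2.4.6, pandas 2.3.3, scipy 1.17.1 and matplotlib 3.10.9 was used. The study's RT-qPCR, imaging and target gene work is not analysed here.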

Additional observations from a re-analysis of the deposited data

How the results depend on the processing

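Of 33 alternative values, 24 stayed within the limits set and 9 moved. The 24 include falls in numbers of entries, so they are not all unchanged values. These were from 26 to 20 member entries, from 1216 to 1060 recovered entries and from 12 to 10 recovered member entries. Counting each distinct sequence once, in place of once per precursor, lowered the share of the 3 precursors to 13.8% in the 1 h table, 14.1% in the 22 h table and 14.95% in the table of DOX 22 h and DOX 1 h, because most miR-1 sequences are listed under both precursors. The listings of a sequence were not copies of 1 count. In the shared library the 14-base form had 326 reads under mir-1-1 and 284 under mir-1-2. This setting thus leaves out reads, and its shares are not corrected ones. With entries listed in all 3 tables only, the share was 20.6% (20.647) at 1 h and 22.4% in the table of DOX 22 h and DOX 1 h, where known precursors alone also gave 22.4%; these shares carry counting intervals so narrow that small shifts count as moved. With sequences under both precursors only, the ratio of mir-1-1 to mir-1-2 was 1.00 (0.999925, 0.999997 and 1.00001 in the same order of tables), so that the lower level of mir-1-1 was lost in all 3. With means of at least 10, the member entries of the table of DOX 22 h and DOX 1 h fell from 26 to 20, and those of the other tables stayed at 22 and 20. Solutions with terms of at most 1000 gave reads for 1060 entries and 10 member entries. Scaling by the total of recovered reads kept all 10 ratios computed within the limits set.

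No paired analysis was possible because the tables give no values per library. Leaving out a replicate could not be done for the same reason. No mature reference sequences were used here, so 4 further settings that need them (arms by the nearest mature sequence, entries without a difference from it, differences within its length, and mir-206 entries holding all bases that set it apart) were not run. The depth of the libraries behind the 1 h table is unknown, and for the others the reads of 8 among 20 member entries of the 22 h table, the most abundant ones, could not be recovered.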
